A study of Mus musculus with 6 samples.

Results

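The casein kinase 1 (CK1) genes of the mouse were followed through 2 populations of dysplastic stem cells sorted from organoids. The 6 genes Csnk1a1, Csnk1d, Csnk1e, Csnk1g1, Csnk1g2 and Csnk1g3 were chosen by symbol, and all 6 had a row among the 23420 gene rows of the count files. TP-DSCs and DP-DSCs, the names given in the labels, were sorted from the mouse epithelial organoid line Meta4, which is dysplastic, with 3 libraries of polyadenylated RNA each. The labels do not spell the names out; as background on the study, DP-DSCs are cells positive for the surface proteins CD133 and CD166, and TP-DSCs carry the CD44v6 form of CD44 as well. All samples share the 1 organoid line, and neither group received a treatment that the labels name. The labels call the samples independent without saying whether cultures were separate, so the p-values cover the spread among these 6 samples alone, and that spread may be technical.

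CK1 enzymes are serine/threonine kinases that are active without a second messenger and often add a phosphate beside one placed by another kinase. In the Wnt pathway, CK1 alpha (Csnk1a1) primes beta-catenin for glycogen synthase kinase 3 inside the destruction complex and so helps to keep beta-catenin low, while CK1 delta (Csnk1d) and CK1 epsilon (Csnk1e) phosphorylate Dishevelled, and the membrane-anchored CK1 gamma enzymes (Csnk1g1, Csnk1g2, Csnk1g3) phosphorylate the Wnt co-receptor LRP6. CK1 delta and CK1 epsilon are also the main kinases of the period proteins of the circadian clock. In the intestinal epithelium of mice, loss of CK1 alpha is known to activate beta-catenin and p53 together.

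The members are related enough that reads could in principle be shared between them, so their coding sequences were compared first. Csnk1d and Csnk1e were the closest pair, identical at 77.7% of 1224 aligned coding bases, and the most distant pair, Csnk1e and Csnk1g3, at 60.1% of 1193. The stretch around the longest run that Csnk1d and Csnk1e have in common, 23 bases, is shown as an example of how their reads can be told apart on either side of a shared run. Both lines cover coding bases 802 to 944, counted from the A of the start codon, in the GENCODE M21 transcripts (GRCm38, the same assembly as mm10), 5′ to 3′ on the coding strand, which is the minus strand of chromosome 11 for Csnk1d and of chromosome 15 for Csnk1e. Capitals mark the 35 of 143 bases at which the genes differ.
Csnk1d: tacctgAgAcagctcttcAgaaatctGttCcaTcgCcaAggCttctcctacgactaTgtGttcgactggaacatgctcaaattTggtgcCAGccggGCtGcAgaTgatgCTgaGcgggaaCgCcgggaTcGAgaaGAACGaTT
Csnk1e: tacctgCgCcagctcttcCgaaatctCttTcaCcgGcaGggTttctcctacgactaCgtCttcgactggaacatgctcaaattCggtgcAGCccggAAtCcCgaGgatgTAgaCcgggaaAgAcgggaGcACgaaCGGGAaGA
Over all coding transcripts, 0 of the 15 pairs of members had a run of 50 bases in common, and the longest run between any coding sequences compared was 31 bases, between Csnk1e and Csnk1g2. The read length is not given in the sources used here. Outside the family, 9.18% of the 50-base windows of Csnk1g3 also occurred in a processed pseudogene, Gm14584, which has no row in the files, so reads from that part of Csnk1g3 may have been lost or misassigned.

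In coordinates of GRCm38, Csnk1a1 lies on chromosome 18 from 61555274 to 61590061 and Csnk1g3 on the same chromosome from 53862122 to 53955548. Csnk1d lies on chromosome 11 from 120961749 to 120991330, Csnk1e on chromosome 15 from 79417856 to 79455566, Csnk1g1 on chromosome 9 from 65908924 to 66045015 and Csnk1g2 on chromosome 10 from 80622838 to 80640749. All are protein-coding, and a gene's count covers its exons as the authors' counting defined them. Antisense transcripts overlap exons of Csnk1d over 63 bases (Gm28192) and of Csnk1e over 267 bases (Gm16059). Neither has a row in the files, and since the strand setting of the counting is not given, their reads cannot be told apart from those of the 2 kinases.

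Reads assigned to genes ranged from 17015581 to 31068454 in TP-DSCs and from 27027919 to 32671039 in DP-DSCs. Genes with at least 1 read numbered 10571 to 10982 in TP-DSCs and 12504 to 14434 in DP-DSCs. The 100 most abundant genes took 20.3 to 24.4% of gene reads in TP-DSCs and 19.5 to 24.001% in DP-DSCs. The epithelial label held: Epcam, Cdh1, Krt8, Krt18 and Krt19 together made up 7446 to 9029 CPM in TP-DSCs and 7984 to 9758 CPM in DP-DSCs, where CPM is a count scaled to the library's gene reads. Markers of other cell types were at or near 0. The 5 immune genes with a row summed to 0 CPM in all TP-DSCs libraries and to at most 0.644 CPM in DP-DSCs, with Cd3e at 0 throughout. The 6 fibroblast genes summed to at most 2.90 CPM in TP-DSCs and 3.19 CPM in DP-DSCs, with Col1a2, Col3a1, Dcn and Lum at 0 throughout. The 4 endothelial genes summed to 0 CPM in TP-DSCs and to 1.503 to 2.44 CPM in DP-DSCs, with Pecam1 at 0 throughout. The library names carry the number 3840 (replicate 1 of each group) or 4140 (replicates 2 and 3 of each group). The labels do not say what the numbers mark, and they were treated as a possible batch.

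All 6 kinases were expressed in both populations, and none differed between TP-DSCs and DP-DSCs beyond the spread of the libraries. In bulk RNA, fewer expressing cells and less transcript per cell cannot be told apart. Csnk1a1 stood highest in reads, with 351, 314 and 398 CPM in TP-DSCs replicates 1, 2 and 3 and 414, 351 and 404 CPM in DP-DSCs replicates 1, 2 and 3. The groups overlapped, and TP-DSCs replicate 2 was the lowest library. The mean was 354 ± 42.2 CPM in TP-DSCs and 389 ± 33.9 CPM in DP-DSCs (SD, n = 3 each). The log2 fold change from edgeR's quasi-likelihood fit over all 11925 tested genes, positive when higher in TP-DSCs, was -0.16 ± 0.19 (SE), with a 95% interval from -0.61 to 0.30 and an adjusted p of 0.999.

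The clock and Dishevelled kinase Csnk1d had 212, 233 and 174 CPM in TP-DSCs replicates 1, 2 and 3 and 209, 299 and 221 CPM in DP-DSCs replicates 1, 2 and 3. TP-DSCs replicate 3 was the lowest of the 6 libraries and DP-DSCs replicate 2 the highest. Means were 206 ± 29.7 CPM in TP-DSCs and 243 ± 49.0 CPM in DP-DSCs (SD, n = 3 each). Its log2 fold change was -0.24 ± 0.20 (SE), with a 95% interval from -0.71 to 0.24 and an edgeR adjusted p of 0.999.

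Its closest relative, Csnk1e, had 73.6, 62.6 and 142 CPM in TP-DSCs replicates 1, 2 and 3 and 82.5, 96.6 and 96.5 CPM in DP-DSCs replicates 1, 2 and 3. TP-DSCs replicate 3 stood 1.47 times above the next library, whereas the other 2 TP-DSCs libraries lay below every DP-DSCs library. The group means were therefore close, 92.8 ± 43.1 CPM in TP-DSCs and 91.9 ± 8.13 CPM in DP-DSCs (SD, n = 3 each), over unequal spreads. The log2 fold change was -0.01 ± 0.31 (SE), with a 95% interval from -0.73 to 0.71 and an edgeR adjusted p of 0.999. Leaving out TP-DSCs replicate 3 gave -0.403 (edgeR adjusted p = 0.588).

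Among the CK1 gamma genes, Csnk1g2 was the most abundant in reads. It had 154, 151 and 203 CPM in TP-DSCs replicates 1, 2 and 3 and 138, 190 and 160 CPM in DP-DSCs replicates 1, 2 and 3, and the groups overlapped throughout. Its means were 169 ± 29.2 CPM in TP-DSCs and 163 ± 25.7 CPM in DP-DSCs (SD, n = 3 each), and its log2 fold change was 0.05 ± 0.18 (SE), with a 95% interval from -0.39 to 0.48. Csnk1g3 had 42.7, 49.9 and 64.9 CPM in TP-DSCs replicates 1, 2 and 3 and 49.8, 66.8 and 62.0 CPM in DP-DSCs replicates 1, 2 and 3. The lowest library was TP-DSCs replicate 1 and the highest DP-DSCs replicate 2. Its means were 52.5 ± 11.3 CPM in TP-DSCs and 59.5 ± 8.75 CPM in DP-DSCs (SD, n = 3 each), and its log2 fold change was -0.20 ± 0.23 (SE), with a 95% interval from -0.74 to 0.34.

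Csnk1g1 showed the same single high library as Csnk1e. It had 46.7, 44.5 and 98.1 CPM in TP-DSCs replicates 1, 2 and 3 and 53.5, 49.1 and 52.1 CPM in DP-DSCs replicates 1, 2 and 3. TP-DSCs replicate 3 stood 1.83 times above the next library, and the other 2 TP-DSCs libraries lay below all DP-DSCs libraries. The means were 63.1 ± 30.3 CPM in TP-DSCs and 51.6 ± 2.25 CPM in DP-DSCs (SD, n = 3 each). The log2 fold change of 0.26 ± 0.33 (SE), with a 95% interval from -0.52 to 1.03, rested on that library and was -0.160 without it.

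**Figure D1:**
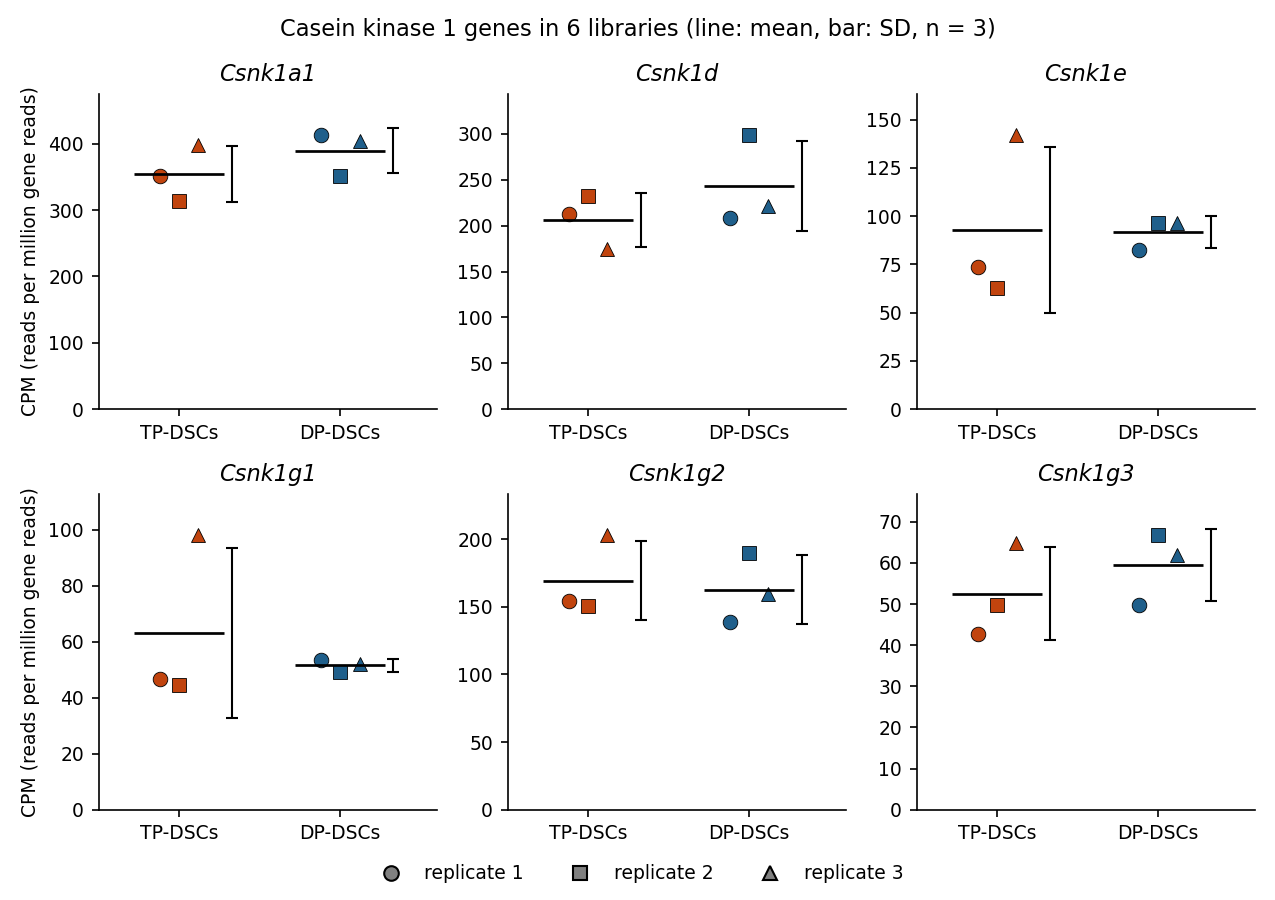
CPM of the 6 casein kinase 1 genes (vertical axes, each starting at 0) in the 3 TP-DSCs and 3 DP-DSCs libraries; points are libraries, the line is the mean and the bar the SD. The groups overlap in every panel, and TP-DSCs replicate 3 (triangle) stands above all other libraries for Csnk1e (142 CPM) and Csnk1g1 (98.1 CPM) and below them for Csnk1d (174 CPM). It is also the highest library for Csnk1g2 (203 CPM), by a smaller margin.

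Of the 6 members, all of which passed the filter on low counts, 0 had an adjusted p under 0.05 in edgeR, against a background of 0% of the 11925 tested genes. In simulated data, where random genes were changed, edgeR recovered 1% of 2-fold and 31.3% of 4-fold changes. Those genes were drawn from all tested genes, whose common biological coefficient of variation between replicates was 0.75. Among the members it was lower, from 0.211 (Csnk1g2) to 0.325 (Csnk1g1). Recovery at the members' variation was not simulated separately, so these rates are not those of the members. An absence of calls does not by itself show equal levels. At an unadjusted p under 0.05 the members also numbered 0, where 6.1% of all tested genes passed (728 genes). DESeq2 called 0 of the members and 0.78% of all tested genes. No member had every TP-DSCs library above every DP-DSCs library, which 3.87% of tested genes had, and none had every one below, which 8.56% had. The members' fold changes lay on both sides of 0, with 2 above and 4 below and a median of -0.08 on the log2 scale, beside a median of -0.02 over all tested genes. Of all tested genes 51.77% lay below 0. The 95% intervals of the 6 genes, each taken alone, reached from 0.599 to 2.05 times. They form no joint bound over the genes and cover the spread among these samples only. For Csnk1a1 the interval ran from 0.654 to 1.23 times, while for Csnk1g1 it reached 2.05 times. Single libraries moved these small fold changes. Leaving out 1 library gave -0.271 (without DP-DSCs replicate 2) to -0.055 (without TP-DSCs replicate 2) for Csnk1a1, and -0.336 (without TP-DSCs replicate 1) to -0.102 (without TP-DSCs replicate 3) for Csnk1d. For Csnk1g3 it gave -0.344 (without TP-DSCs replicate 3) to -0.135 (without TP-DSCs replicate 1), and for Csnk1g2 -0.066 (without TP-DSCs replicate 3) to 0.145 (without TP-DSCs replicate 2). The order of the members by fold change is therefore not given.

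Within each library-name number the same lack of a common direction was seen. As differences of mean log2 CPM, TP-DSCs minus DP-DSCs, Csnk1a1 differed by -0.24 in number 3840 and -0.09 in number 4140, and Csnk1g3 by -0.22 in number 3840 and -0.18 in number 4140. Csnk1d differed by 0.02 in number 3840 and by -0.35 in number 4140, Csnk1e by -0.16 and -0.03, Csnk1g1 by -0.20 and 0.39, and Csnk1g2 by 0.16 and 0.01, with number 3840 before 4140. Number 3840 holds 1 library per group and so has no replicate check. With the number as a block, edgeR gave log2 fold changes from -0.239 (Csnk1d) to 0.247 (Csnk1g1), and none passed.

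**Figure D2:**
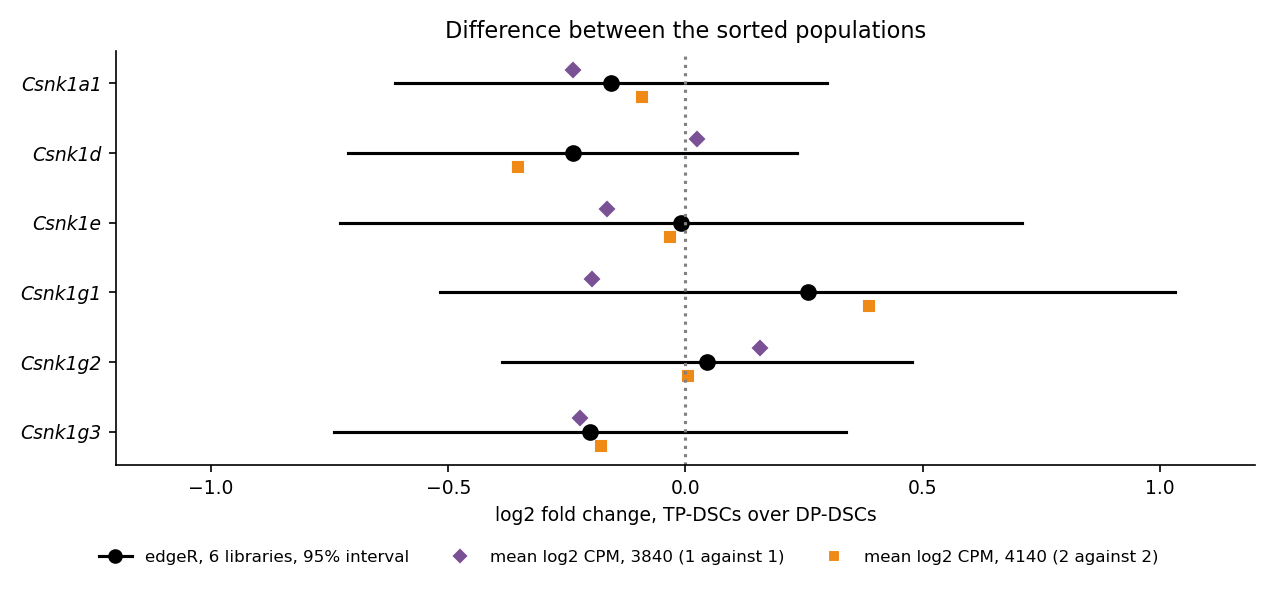
Log2 fold change of each casein kinase 1 gene (horizontal axis, TP-DSCs over DP-DSCs); black points and lines are the edgeR estimate with its 95% interval over 6 libraries, and coloured symbols are differences of mean log2 CPM within the libraries numbered 3840 (1 against 1) and 4140 (2 against 2). All 6 intervals span 0; Csnk1d and Csnk1g1 lie on opposite sides of 0 in the 2 numbers.

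Levels of different genes were compared as CPM per kilobase of the longest protein-coding transcript. On that scale Csnk1a1 averaged 86.7 ± 10.3 in TP-DSCs and 95.4 ± 8.29 in DP-DSCs, Csnk1g2 72.1 ± 12.4 in TP-DSCs and 69.3 ± 10.95 in DP-DSCs, and Csnk1d 56.2 ± 8.09 in TP-DSCs and 66.2 ± 13.3 CPM per kilobase in DP-DSCs (SD, n = 3 each). Csnk1e followed with 29.2 ± 13.6 in TP-DSCs and 28.9 ± 2.56 in DP-DSCs, then Csnk1g3 with 12.4 ± 2.66 in TP-DSCs and 14.0 ± 2.06 in DP-DSCs, and Csnk1g1 with 8.75 ± 4.20 in TP-DSCs and 7.16 ± 0.311 CPM per kilobase in DP-DSCs. The order was the same in 5 of 6 libraries; in DP-DSCs replicate 2, Csnk1d stood above Csnk1g2. Ranges over libraries overlapped between Csnk1a1 and Csnk1g2 in TP-DSCs but not in DP-DSCs, between Csnk1g2 and Csnk1d in DP-DSCs but not in TP-DSCs, and between Csnk1g3 and Csnk1g1 in TP-DSCs but not in DP-DSCs. The other neighbours were separate in both groups. Among 13367 genes with reads and a length, these mean levels ranged from the 94.5th percentile for Csnk1a1 to the 51.1st for Csnk1g1.

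The order at the top depends on the length used. With the union of all annotated exons as length, Csnk1d led with 44.8 CPM per kilobase over the 6 libraries, ahead of Csnk1a1 with 35.4 and Csnk1g2 with 34.3. The union is 10502 bases for Csnk1a1 against 4083 for its longest coding transcript, and 5022 against 3675 bases for Csnk1d. Gene-level counts do not say which transcripts were present.

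As shares of the family's summed CPM per kilobase, all 6 genes had overlapping groups. Csnk1a1 made up 32.7 ± 1.53% in TP-DSCs and 34.2 ± 5.16% in DP-DSCs, and Csnk1g2 27.1 ± 1.10% in TP-DSCs and 24.6 ± 2.18% in DP-DSCs (SD, n = 3 each). Csnk1d made up 23.2, 26.2 and 15.5% in TP-DSCs replicates 1, 2 and 3 and 21.7, 27.0 and 21.6% in DP-DSCs replicates 1, 2 and 3. Csnk1e made up 9.31, 8.16 and 14.7% in TP-DSCs replicates 1, 2 and 3 and 9.91, 10.1 and 10.9% in DP-DSCs replicates 1, 2 and 3. Csnk1g1 made up 2.60, 2.55 and 4.46% in TP-DSCs replicates 1, 2 and 3 and 2.83, 2.26 and 2.59% in DP-DSCs replicates 1, 2 and 3. TP-DSCs replicate 3 was thus the library with the lowest share of Csnk1d and the highest shares of Csnk1e and Csnk1g1. It also had the highest Csnk1g2 share, 28.3%, with 26.8% next in DP-DSCs replicate 2. Its summed CPM of the family, 1080, was the highest as well, with 1052 next in DP-DSCs replicate 2. The summed CPM of the family was 938 ± 124 in TP-DSCs and 998 ± 52.7 in DP-DSCs (SD, n = 3 each), with overlapping libraries.

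**Figure D3:**
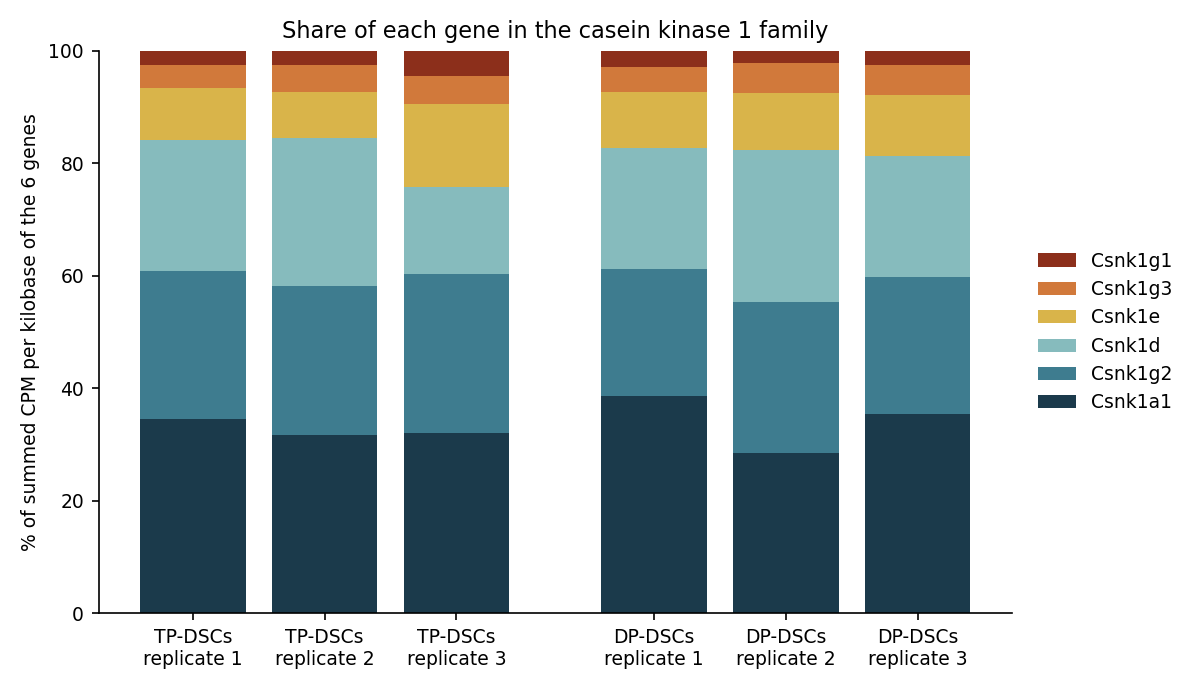
Share of each casein kinase 1 gene in the family's summed CPM per kilobase of transcript (vertical axis, percent) in each library. Csnk1a1, Csnk1g2 and Csnk1d fill most of every bar; TP-DSCs replicate 3 has the smallest Csnk1d share (15.5%) and the largest Csnk1e share (14.7%).

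The ratio of Csnk1d to Csnk1e reads within a library, which needs no scaling between libraries, was 2.89, 3.72 and 1.23 in TP-DSCs replicates 1, 2 and 3 and 2.53, 3.10 and 2.29 in DP-DSCs replicates 1, 2 and 3. TP-DSCs held both the highest ratio, in replicate 2, and the lowest, in replicate 3. The mean log2 ratio was 1.24 ± 0.84 in TP-DSCs and 1.39 ± 0.22 in DP-DSCs (SD, n = 3 each), a difference of -0.15 (p = 0.9 by an exact permutation over libraries, two-sided, where 3 against 3 cannot go below 0.1). Without TP-DSCs replicate 3 the difference was 0.322. That library had 10578 genes with reads against 10571 and 10982 in the other TP-DSCs libraries, and 4418 reads in Csnk1e and 3047 in Csnk1g1; the part of depth or library complexity in its pattern was not tested.

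Csnk1a1, Csnk1d, Csnk1g2 and Csnk1g3 varied little among libraries of a group. The SD of log2 CPM, here scaled by TMM with a prior count of 2, was pooled within groups. It was 0.20 for Csnk1a1, 0.23 for Csnk1d, 0.18 for Csnk1g2 and 0.20 for Csnk1g3. Larger SDs were found in 91.2, 87.7, 93.4 and 91.7% of tested genes, in that order. Csnk1e and Csnk1g1 had 0.43 each, near the median of 0.50 over all tested genes. In these 2 genes the spread lay in TP-DSCs. There the SD was 0.60 for Csnk1e and 0.59 for Csnk1g1, against 0.09 for Csnk1e and 0.15 for Csnk1g1 in DP-DSCs. The order of the 2 genes in DP-DSCs depended on the scaling. On CPM without TMM, the SD in DP-DSCs was 8.85% of the mean for Csnk1e and 4.35% for Csnk1g1. In TP-DSCs it was 46.5% for Csnk1e and 48.0% for Csnk1g1. Over all tested genes the median SD of TMM-scaled log2 CPM was also larger in TP-DSCs, 0.56 against 0.31 in DP-DSCs. The members were not compared with genes of like abundance.

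The profile of each member over the 6 libraries was compared with those of 7777 other genes. Values were the same TMM-scaled log2 CPM, averaging 4 or more in the genes compared. The measure was the root mean square difference of the centred values. The nearest genes were Rabl6 (0.06) for Csnk1a1, Zdhhc13 (0.05) for Csnk1d, Flad1 (0.04) for Csnk1e, Tead3 (0.07) for Csnk1g1, Dbndd2 (0.05) for Csnk1g2 and Ube2j1 (0.04) for Csnk1g3. Second came Pttg1ip (0.06), Xpot (0.06), Rabep1 (0.05), Focad (0.08), Nacc1 (0.06) and Arnt2 (0.04) in the same order of members. The median over all genes compared ran from 0.39 to 0.51. Within the family the nearest profiles were those of Csnk1g2 and Csnk1g3 (0.15) and of Csnk1e and Csnk1g1 (0.18), and the farthest those of Csnk1d and Csnk1g1 (0.57). TP-DSCs replicate 3 lay farthest from the gene's own mean for Csnk1d, Csnk1e and Csnk1g1. Its centred log2 CPM was 0.60 for Csnk1e, 0.76 for Csnk1g1 and -0.42 for Csnk1d, the largest deviation of each. For Csnk1e, TP-DSCs replicate 2 deviated nearly as far, at -0.57. The part of each library in the differences between profiles was not examined. With 6 points and so many genes, near profiles are a description only.

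The genes that CK1 enzymes act on or with were described by 10 lists of 82 genes, of which 81 had a row and 70 were tested. None passed in edgeR (smallest adjusted p 0.1235), and DESeq2 called 0 on the same filtered genes. DESeq2 on all genes with reads, an alternative chosen after seeing the data, called 1, Bhlhe41 (adjusted p = 0.0301). In simulated data on the filtered genes, DESeq2 made a mean of 65.3 false calls per simulation, against 3 for edgeR. At an unadjusted p under 0.05 there were 4, or 5.71%, all lower in TP-DSCs, near the 6.1% of all tested genes. That background share covers both directions. In 8 genes, 11.4%, every TP-DSCs library lay below every DP-DSCs library, against 8.56% of all tested genes: Fam83f, Fam83h, Gsk3a, Fbxw11, Ppp2r5e, Dvl2, Dvl3 and Bhlhe41. In 0 every one lay above, against 3.87%. The median log2 fold change was -0.13, with 27 genes above and 43 below 0. Over all tested genes it was -0.02, with 5752 above and 6173 below 0.

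The destruction complex list, the setting in which CK1 alpha acts on beta-catenin, had 3 members above and 9 below 0 and a median of -0.18, which was -0.295 without DP-DSCs replicate 1. Fbxw11, a substrate receptor of the ubiquitin ligase that removes phosphorylated beta-catenin, had 83.0, 78.9 and 78.9 CPM in TP-DSCs replicates 1, 2 and 3 and 98.0, 109 and 114 CPM in DP-DSCs replicates 1, 2 and 3. All TP-DSCs libraries lay below all DP-DSCs libraries, with a log2 fold change of -0.43 ± 0.18 (SE) that did not pass (edgeR adjusted p = 0.788). Gsk3a, one of the 2 glycogen synthase kinase 3 genes, averaged 96.9 ± 12.6 CPM in TP-DSCs and 117 ± 15.2 CPM in DP-DSCs. Its log2 fold change was -0.29 ± 0.17 (SE), with an edgeR adjusted p of 0.999. Its libraries were separate by a narrow margin, with 105.6 CPM in TP-DSCs replicate 2 against 106.7 CPM in DP-DSCs replicate 3. Ctnnb1, beta-catenin itself, averaged 1442 ± 224 CPM in TP-DSCs and 1625 ± 456 CPM in DP-DSCs with overlapping libraries.

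The list of Wnt receptors, Dishevelled genes and cadherin partners had 2 members above and 5 below 0 and a median of -0.24, which was -0.049 without TP-DSCs replicate 2, -0.429 without DP-DSCs replicate 1 and -0.461 without TP-DSCs replicate 3. Of the 3 Dishevelled genes, Dvl3 had 26.5, 27.2 and 37.3 CPM in TP-DSCs replicates 1, 2 and 3 and 46.8, 58.0 and 37.5 CPM in DP-DSCs replicates 1, 2 and 3. Its groups were separate by a narrow margin, and its log2 fold change of -0.66 ± 0.28 (SE) did not pass (edgeR adjusted p = 0.830). Cdh1, E-cadherin, had overlapping libraries and a log2 fold change of -0.54 ± 0.22 (SE). The CK1 gamma substrate Lrp6 averaged 155 ± 42.2 CPM in TP-DSCs and 118 ± 15.3 CPM in DP-DSCs, with overlapping libraries. Its log2 fold change was 0.36 ± 0.22 (SE), with a 95% interval from -0.15 to 0.88 and an edgeR adjusted p of 0.999. Lrp5 averaged 232 ± 43.6 CPM in TP-DSCs and 228 ± 8.53 CPM in DP-DSCs, also with overlapping libraries.

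FAM83 proteins anchor CK1 enzymes in the cell, and DDX3X is known as a partner that stimulates CK1 epsilon. Of 9 genes in this list 7 were tested, with 2 above and 5 below 0 and a median of -0.39. That median was -0.741 without TP-DSCs replicate 1, -0.174 without DP-DSCs replicate 1 and -0.210 over genes with reads in all 6 libraries. Fam83h had 76.1, 88.5 and 67.4 CPM in TP-DSCs replicates 1, 2 and 3 and 98.5, 137 and 103 CPM in DP-DSCs replicates 1, 2 and 3, again with TP-DSCs wholly below DP-DSCs. Its log2 fold change was -0.55 ± 0.20 (SE), with an edgeR adjusted p of 0.602. Fam83g had a log2 fold change of -0.39 ± 0.31 (SE) with overlapping libraries, and Fam83a had no reads in any library.

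The circadian list, which holds the period substrates of CK1 delta and epsilon, had 9 of 16 tested members above 0 and a median of 0.03, which was -0.243 without DP-DSCs replicate 2 and 0.331 without DP-DSCs replicate 1. Per1 had 71.8, 13.2 and 98.6 CPM in TP-DSCs replicates 1, 2 and 3 and 108, 30.2 and 39.4 CPM in DP-DSCs replicates 1, 2 and 3. Per2 had 34.5, 13.05 and 30.4 CPM in TP-DSCs replicates 1, 2 and 3 and 63.6, 20.5 and 12.8 CPM in DP-DSCs replicates 1, 2 and 3. Per3 had 30.0, 39.7 and 32.6 CPM in TP-DSCs replicates 1, 2 and 3 and 43.2, 22.3 and 28.01 CPM in DP-DSCs replicates 1, 2 and 3. Per1 and Per2 differed several-fold between libraries of 1 group and Per3 less, and the groups overlapped for all 3. Bhlhe41, a clock repressor, had no reads in TP-DSCs and averaged 2.06 ± 1.35 CPM in DP-DSCs, at least 50.2-fold lower in TP-DSCs against a floor of 3 reads over the group (edgeR adjusted p = 0.1235; DESeq2 on all genes with reads, adjusted p = 0.0301). Leaving out 1 library moved that bound to between 28.8-fold (without TP-DSCs replicate 3) and 66.8-fold (without DP-DSCs replicate 3), and it was 33.1-fold without TP-DSCs replicate 1. Reads are not independent molecules, so that bound covers read counting only. Such absence was common at that level: of the 1241 genes averaging 1 to 4 CPM in DP-DSCs, TP-DSCs replicates 1, 2 and 3 lacked reads for 60.03, 67.7 and 68.7%, and the DP-DSCs libraries for 0.81 to 9.35%. These genes were chosen by their DP-DSCs level, which in itself favours reads in DP-DSCs. No set chosen by TP-DSCs level was examined. The part of this absence in the Bhlhe41 result was not tested.

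**Figure D4:**
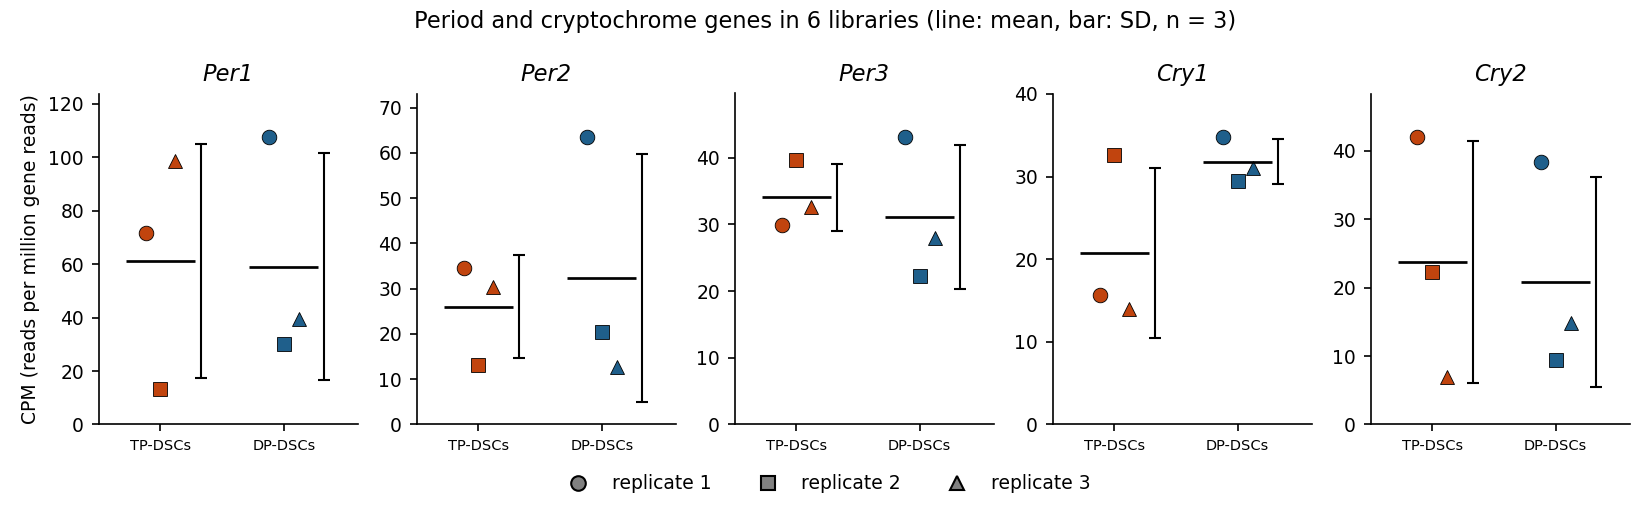
CPM of the period and cryptochrome genes (vertical axes, each starting at 0) in the 3 TP-DSCs and 3 DP-DSCs libraries; points are libraries, the line is the mean and the bar the SD. Per1 spans 13.2 to 98.6 CPM within TP-DSCs and 30.2 to 108 CPM within DP-DSCs, and the groups overlap in every panel.

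In the smaller lists no gene passed. The Hedgehog list had 4 of 5 tested members above 0, with Sufu, the inhibitor of GLI factors, at 0.63 ± 0.58 and Gpr161 at 1.05 ± 1.05 (log2 fold change ± SE), and Gli2 without reads in any library. Its median of 0.63 became -0.365 without TP-DSCs replicate 3. Among the p53 regulators and the CARD, BCL10 and MALT1 partners of CK1 alpha, Mdm4, a p53 inhibitor that CK1 alpha binds, was at 0.41 ± 0.24 and Bcl10 at -0.38 ± 0.26. In the cereblon ligase, through which lenalidomide degrades CK1 alpha in human cells, Cul4a was at -0.42 ± 0.20 and Ddb1 at -0.37 ± 0.21. The distant relatives Vrk1 and Vrk3 were at 0.34 ± 0.32 and -0.30 ± 0.38. Csnk2b and Csnk2a2, subunits of the unrelated casein kinase 2, were at -0.12 ± 0.18 and -0.25 ± 0.47. The Hippo effectors Wwtr1 and Yap1 were at -0.56 ± 0.27 and 0.12 ± 0.18. The medians were -0.16 for the p53, CARD, BCL10 and MALT1 list, -0.37 for the cereblon ligase, 0.04 for the relatives, -0.18 for the other casein kinases and -0.23 for the Hippo list. Most of these values moved with single libraries. Leaving out 1 library gave medians of -0.321 (without TP-DSCs replicate 2) to 0.023 (without TP-DSCs replicate 3) for the p53, CARD, BCL10 and MALT1 list and -0.358 (without DP-DSCs replicate 3) to -0.113 (without DP-DSCs replicate 2) for the Hippo list. The cereblon ligase median was -0.123 and that of the other casein kinases 0.005 without TP-DSCs replicate 1. The median of the relatives ran from -0.081 (without DP-DSCs replicate 1) to 0.205 (without DP-DSCs replicate 3). Among single genes, Sufu was 0.121 without TP-DSCs replicate 3, Vrk3 and Csnk2b -0.053 and -0.034 without TP-DSCs replicate 1, Vrk1 and Yap1 0.135 and 0.015 without DP-DSCs replicate 1, and Csnk2a2 0.072 without TP-DSCs replicate 3.

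**Figure D5:**
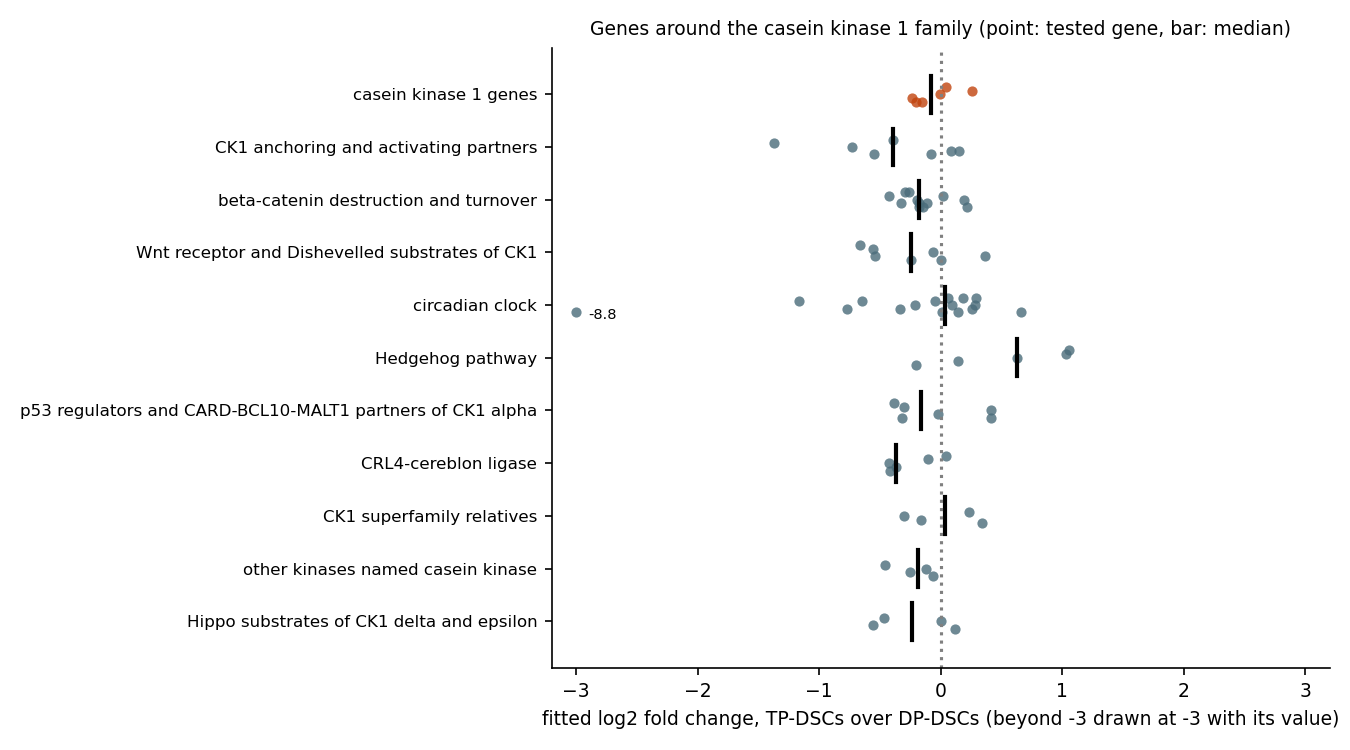
Fitted log2 fold change (horizontal axis, TP-DSCs over DP-DSCs) of the tested genes in the casein kinase 1 family and in 10 lists around it; points are genes and bars list medians. The 6 kinases lie between -0.24 and 0.26; the point drawn at -3 is Bhlhe41, which had no reads in TP-DSCs, so that its fitted value depends on the fit.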

How the data were processed

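The deposited files hold raw read counts per gene symbol, 1 file per library, with no normalization apparent: the counts are whole and their totals differ. Per the labels' protocols, RNA was polyA-selected and made into stranded libraries. The submitters' processing notes name STAR 2.7.3a, Partek, DESeq2 3.5 and mm10, with no roles; neither the counting tool nor the strand setting is given in the sources used here. Rows for reads in no gene (14.1 to 20.3% of reads) and ambiguous reads (1.09 to 1.86%) were left out. Replicate numbers follow deposit order and pair no samples.

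CPM is a count over the library's gene reads. The SDs of log2 CPM and the profile comparisons used edgeR's log2 CPM instead, with TMM scaling and a prior count of 2. Tests used edgeR 4.0.16 in R 4.3.3: filterByExpr (minimum count 10, total 15), TMM scaling, the quasi-likelihood F test on all 6 libraries without covariates, and Benjamini-Hochberg adjustment over 11925 genes at 0.05. The SE is the log2 fold change over the square root of F; 95% intervals use the fit's degrees of freedom. Transcript lengths came from GENCODE M21, matched for 82.5% of rows and all members. Besides the members, the text names the 2 genes with the smallest p per list and the 2 nearest profiles per member, except 1 gene that is not reported here; other list genes, such as Ctnnb1, Lrp5, Lrp6, Per1 and Per2, were named after their values were seen. Members and lists were chosen with earlier results of these data known.

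Scripts were tested on simulated data, drawn from the means, library sizes and dispersions of the real genes. There edgeR recovered 3 of 300 2-fold changes (1%) and 94 of 300 4-fold changes (31.3%) at the same threshold. DESeq2 1.42.0 was an alternative, and in the simulated data it made a mean of 65.3 false calls per simulation, against 3 for edgeR. Replicates of a group differed by a chi-square of 103.3 to 303.6 per degree of freedom, so no library was counted as a duplicate. Alternatives were other scalings, DESeq2, limma-voom (limma 3.58.1), other filters, the library-name number as a block, number 4140 alone and leaving out each library.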

Additional observations from a re-analysis of the deposited data

How the results depend on the processing

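Over 17 alternatives the adjusted p of the members ran from 0.588 to 1, and 89 of 102 values kept their direction. Csnk1e, at -0.01, turned to 0.014 with DESeq2 size factors and in DESeq2 on both gene sets, 0.015 with library size only, 0.024 over genes with reads in all 6 libraries and 0.025 in number 4140 alone. Leaving out 1 library gave -0.403 to 0.221 for Csnk1e, -0.160 to 0.468 for Csnk1g1 and -0.066 to 0.145 for Csnk1g2, which was also -0.040 in number 4140 alone. It gave -0.989 to 0.072 for Csnk2a2 and -0.479 to 0.322 for the difference in log2 Csnk1d to Csnk1e ratio, both highest without TP-DSCs replicate 3. edgeR and limma-voom called 0 genes in every fit, with 363 to 1811 at an unadjusted p under 0.05 over the alternatives; DESeq2 called 93, 7 higher and 86 lower, and, added after seeing the data, 267 over all genes with reads, including 1 list gene (Bhlhe41, adjusted p 0.0301). The median of all tested genes shifted by -0.13 in limma-voom and -0.14 with no filter. The destruction complex median was -0.207 with upper-quartile factors, -0.219 in limma-voom, -0.148 over genes with reads in all 6 libraries and -0.293 in number 4140 alone, and -0.295 to -0.132 leaving out 1 library. Leaving out 1 library also gave medians of -0.461 to -0.049 for the Wnt receptor list, -0.365 to 0.942 for Hedgehog, -0.403 to -0.123 for the cereblon ligase, -0.081 to 0.205 for the CK1 relatives -0.240 to 0.005 for casein kinase 2 with Fam20c, -0.741 to -0.174 for the anchoring list, -0.243 to 0.331 for the circadian list, -0.321 to 0.023 for the p53, CARD, BCL10 and MALT1 list and -0.358 to -0.113 for the Hippo list. The Hedgehog median was -0.249 in limma-voom, the casein kinase 2 and Fam20c median -0.324 in limma-voom, and the cereblon ligase median -0.121 in number 4140 alone. With union exon lengths, mean CPM per kilobase was 35.391 for Csnk1a1, 44.757 for Csnk1d, 14.011 for Csnk1e, 3.671 for Csnk1g1 and 34.314 for Csnk1g2, and shares were 24.531% for Csnk1a1, 30.954% for Csnk1d, 23.606% for Csnk1g2 and 8.832% for Csnk1g3. The causes were not tested. The labels give no replicate numbers that pair single libraries; the library-name number, the one label shared across groups, was fitted as a block and changed no call.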
